A study of Mus musculus with 8 samples.

Results

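The genes described here are 39 genes of the unfolded protein response and of protein folding and export in the endoplasmic reticulum (ER). They were chosen by name, and a gene entered only if it averaged 1 FPKM or more over the 8 libraries. FPKM is a number of sequenced fragments divided by transcript length and by library size. All 39 listed genes were found and all 39 met this condition, out of 11612 genes averaging 1 FPKM or more and 24067 genes in the table. The cells were primary articular chondrocytes, the cells of joint cartilage, taken from the ends of the femur and tibia of 5-day-old ICR mice. A total of 4 libraries came from cells transfected with 50 nM of a mimic of the microRNA miR-204, and 4 from cells given 50 nM of a control small RNA, miR-Ctrl. Transfection lasted 24 h and RNA was taken 24 h after its end. Both groups were kept in serum-containing medium at low oxygen, and there was no untransfected group and no group treated with an ER stress agent. The labels do not say whether the replicates were separate cultures or animals, so the p-values speak only of the spread among these libraries, possibly a technical one. The RNA is from whole cultures, in which fewer cells of a type and less RNA per cell cannot be told apart.

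Proteins meant for secretion enter the ER through the Sec61 channel, are folded by chaperones and disulfide isomerases, and leave in vesicles coated with the COPII proteins. When unfolded proteins build up, 3 sensors act: IRE1 (Ern1) splices the mRNA of Xbp1, PERK (Eif2ak3) slows translation and raises ATF4, and ATF6 is cut to release a transcription factor. Chondrocytes secrete large amounts of collagen and proteoglycan and depend on this machinery. PERK has been described as a miR-204 target in pancreatic beta cells. Gene-level FPKM shows neither the splicing of Xbp1, nor the cutting of ATF6, nor the phosphorylation of PERK.

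A microRNA binds 3′ UTRs mainly through its seed, bases 2 to 8. The mature sequence is shown with the seed in capitals, since the matches printed after it pair with that stretch. It is the RefSeq sequence at chr19:22750610-22750631 on the plus strand of GRCm38.p6, the assembly also called mm10.
miR-204-5p: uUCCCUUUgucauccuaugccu
The longest 3′ UTR of each gene in the GENCODE M21 annotation was searched on the transcribed strand for AAAGGGAA (8mer), AAAGGGA (7mer-m8), AAGGGAA (7mer-A1) and AAGGGA (6mer), where a shorter match inside a longer one was not counted. An 8mer or 7mer-m8 was found in 5 of the 39 genes. Their windows of 30 bases, with the match in capitals, are shown because these 5 genes were all lower with miR-204. The window of Sec24d is chr3:123365137-123365166 on the plus strand, that of Sel1l chr12:91809258-91809287 on the minus strand, and that of Edem1 chr6:108856983-108857012 on the plus strand. Creb3l2 has its window at chr6:37332249-37332278 on the minus strand. Atf6 has 2 windows, at chr1:170709356-170709385 and chr1:170709025-170709054, both on the minus strand.
Sec24d, 8mer: gggggtactgtAAAGGGAAgagtccattac
Sel1l, 7mer-m8: ctcttattttaAAAGGGAttattgatcgga
Edem1, 7mer-m8: atttttagtcaAAAGGGAgaaattataatc
Creb3l2, 7mer-m8: ggctctccacaAAAGGGAgctagcacctct
Atf6, first 7mer-m8: agagtttgggtAAAGGGAttatctccagtt
Atf6, second 7mer-m8: ccagactcagcAAAGGGActtggaggtcac
A 7mer-A1 was the best match in Hyou1, Atf3 and Ssr1, a 6mer in Dnajb11 and Sec61a1, and 29 genes had none of the 4 words, Eif2ak3 among them. A 7mer or 8mer was thus present in 20.5% of the 39 genes, against 24.0% of 11192 tested genes with an annotated 3′ UTR. A match to these letters does not show that the site is bound.

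Promoters of the set were searched as well, because ATF6, XBP1 and ATF4 act on short DNA elements near gene starts. RefSeq promoters of GRCm38.p6, from 250 bases before to 50 after a start, were available for 34 of the 39 genes. The ER stress response element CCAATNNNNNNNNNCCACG, read on both strands, was present in 6 of these 34 genes (17.6%), against 0.183% of 9272 tested genes and 0.119% of all 32851 promoters. The 6 were Hspa5, Hsp90b1, Pdia6, Dnajc3, Creld2 and Syvn1. The XBP1-type element TGACGTGG was in Sec23a and Sec24d (5.88%, against 1.08% of tested genes and 0.676% of all promoters). The element bound by ATF4 with a C/EBP partner, TGATGNAA, was in 5 genes (14.7%, against 2.60% of tested genes and 3.97% of all promoters). No gene held more than 1 kind of these 3 elements. Hsp90b1 held the ER stress response element both at −107 and at −212 bases from the start, and these copies did not overlap. The 5 windows with TGATGNAA are printed on the strand of the gene, with the element in capitals and its free base in lower case. They are shown because all 5 genes were low in both replicate 2 libraries. In all, 16 of the 39 genes were low there, not all of them with the element. A link between the element and the low levels was not tested. In Asns the element reads on the strand of the gene, and in the other 4 genes on the opposite strand. The windows are Asns at chr6:7693214-7693243 (minus strand), Trib3 at chr2:152344028-152344057 (minus strand), Atf3 at chr1:191183425-191183454 (minus strand), Chac1 at chr2:119351038-119351067 (plus strand) and Herpud1 at chr8:94386306-94386335 (plus strand).
Asns: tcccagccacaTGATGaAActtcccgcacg
Trib3: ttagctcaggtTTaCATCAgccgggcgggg
Atf3: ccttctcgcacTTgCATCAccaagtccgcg
Chac1: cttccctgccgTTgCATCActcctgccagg
Herpud1: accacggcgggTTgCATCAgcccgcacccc
These letters are a description of the windows. Several genes of the set were listed as known targets of these factors, so the shares are no independent result.

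The libraries held 11184 to 11647 genes at 1 FPKM or more, and FPKM summed to between 416560 and 490818. Depth relative to miR-Ctrl replicate 1 was 0.772 and 0.798 in the replicate 2 libraries and 0.929 to 0.962 in the rest. All 8 chondrocyte markers (among them Col2a1, Acan and Sox9) reached a mean of 1 FPKM, with sums of 10460 to 10697 FPKM in both replicate 2 libraries and 21267 to 34650 in the other 6. Their sum was lower with miR-204 in 4 of 4 pairs of equal replicate number, but not each marker. Col2a1, Sox9, Hapln1 and Comp were lower in 4 of 4 pairs and Acan, Col9a1 and Col11a2 in 3 of 4, while Matn3 was higher in 4 of 4. All 6 fibroblast markers were also present, with sums of 1336 to 3127 FPKM in miR-Ctrl libraries and 1501 to 3312 in miR-204 libraries. Of the other lists, 2 of 6 macrophage markers (Lyz2 and Cd68), 3 of 5 osteoblast markers and 1 of 5 plasma cell markers (Sdc1) reached a mean of 1 FPKM, and 0 of 5 endothelial ones did. Ptprc, found on all leukocytes, stayed at or below 0.0309 FPKM. Macrophage sums were 3.29 to 12.6 FPKM with miR-Ctrl and 8.54 to 16.4 with miR-204. Osteoblast sums were 22.9 and 23.7 FPKM in the replicate 2 libraries and 5.25 to 11.7 in the others. Both sums were higher with miR-204 in 4 of 4 pairs, but not each marker. In the macrophage list Lyz2 and Cd68 were higher in 4 of 4 pairs, Emr1 was lower in 4 of 4 and C1qa in 3 of 4. In the osteoblast list Bglap and Ibsp were higher in 3 of 4 pairs and Sp7 was lower in 3 of 4. The part of these other cells in the results was not tested.

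None of the 39 genes passed the test when the 4 miR-204 libraries were compared with the 4 miR-Ctrl libraries without regard to replicate number. limma called 0 of them higher and 0 lower at an adjusted p below 0.05, with 0.0258% of the 11612 tested genes called higher and 0.181% called lower. The lowest adjusted p in the set was 0.394, for Sec24d. At an unadjusted p below 0.05 there were 2 genes (5.13%), Sec24d and Dnajb9, against 8.59% of all tested genes. Differences of miR-204 minus miR-Ctrl in log2(FPKM + 1) ran from −0.19 to 0.24 with a median of 0.021, and the largest, in Dnajb9, was a level 18.2% higher on that scale. A total of 24 genes (61.5%) were above 0, against 74.1% of all tested genes, whose median was 0.064. The 95% interval lay within a 1.5-fold change in either direction for 36 of the 39 genes, all but Sdf2l1, Creb3l2 and Chac1, and within 1.2-fold for 16.

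Libraries of equal replicate number resembled each other, and a paired fit with the number as a block called 5 of the 39 genes. Higher with miR-204 were Dnajb9 and Sec61b (5.13% of the set, against 12.4% of all tested genes), and lower were Sel1l, Trib3 and Sec24d (7.69%, against 2.83%). With an unadjusted p below 0.05, the paired fit had 12 genes (30.8%), against 35.6% of all. In this fit the 95% interval lay within 1.5-fold for all 39 genes and within 1.2-fold for 34. The balance of rises and falls depended on scaling. After each library was centred on its median, the paired fit called 0 genes of the set higher (4.99% of all tested genes) and 5 lower (4.32%), and the 2 rises were lost while Edem1 and Atf6 joined the 3 falls. With quantile normalization it called 0 higher (4.78%) and 4 lower (4.62%). With 3 pairs in place of 4, the calls changed more than the differences. Without replicate 1 the paired fit called 0 genes of the set higher (0.766% of all tested genes) and 0 lower (0.715%). It also called 0 and 0 without replicate 3 (2.03% and 1.28% of all) and without replicate 4 (0.362% and 0.413%), so calls were fewer across all genes too. Over these 3 fits the log2 difference of Sel1l was −0.19 to −0.18, that of Trib3 −0.16 to −0.13 and that of Sec24d −0.20 to −0.14. Dnajb9 was at 0.24 to 0.28 and Sec61b at 0.13 to 0.18. Without replicate 2 it called 4 higher (23.9% of all genes) and 4 lower (4.50%), adding Pdia6, Sdf2l1 and Creb3l2.

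Counting pairs without a model, 9 of the 39 genes (23.1%) were higher with miR-204 in 4 of 4 pairs, against 33.9% of all tested genes. They were Pdia3, Pdia4, Dnajb9, Dnajc3, Ern1, Chac1, Sec23b, Sec61b and Sar1b. Lower in 4 of 4 pairs were 7 genes (17.9%, against 7.44%), namely Edem1, Sel1l, Atf6, Creb3l2, Trib3, Sec61a1 and Sec24d. Sec24d and Atf6 were lower without any overlap of the groups (5.13%, against 1.58%), and 0 genes were higher without overlap (4.32% of all).

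**Figure D1:**
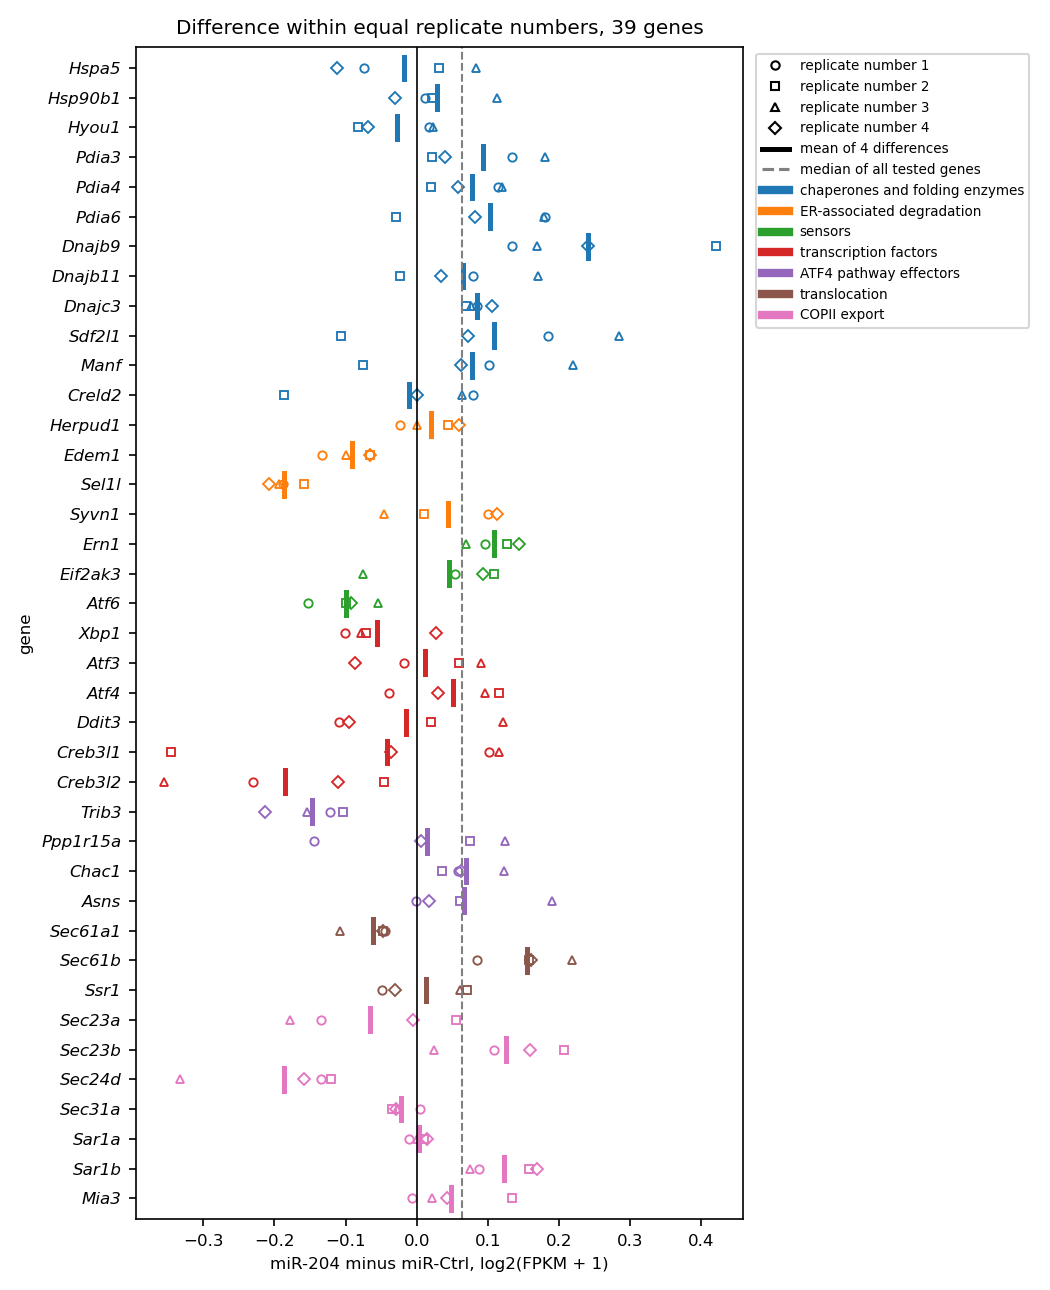
Difference of miR-204 minus miR-Ctrl in log2(FPKM + 1) within each replicate number (open symbols) and their mean (bars) for the 39 genes, ordered and coloured by role; the dashed line is the median of all tested genes, 0.064. Means lie between −0.19 and 0.24, and Sel1l, Trib3 and Sec24d have 4 of 4 points below 0.

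Among the 12 chaperones and folding enzymes, Dnajb9 was the only one called in the paired fit. Dnajb9 (chr12:44205897-44210068) encodes an ER co-chaperone of the HSP40 type that acts on BiP and holds IRE1 inactive. It was at 31.4, 26.5, 26.3 and 28.2 FPKM in miR-Ctrl replicates 1 to 4 and at 34.5, 35.8, 29.7 and 33.5 in miR-204 replicates 1 to 4, the order kept for every gene below. The groups overlapped, since miR-204 replicate 3 lay under miR-Ctrl replicate 1, but every pair was higher with miR-204. The log2 difference was 0.24 with an SE of 0.080 (adjusted p = 0.441) and an SE of 0.054 in the paired fit (adjusted p = 0.0352). Pair differences were 0.13, 0.42, 0.17 and 0.24, so replicate 2 held the largest. After median centring the paired difference was 0.18 (adjusted p = 0.112).

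Hspa5 encodes BiP, the main ER chaperone and the best known readout of ER stress, and it had the highest mean of the set at 541 FPKM, rank 131 of the tested genes. It was at 566, 500.4, 521 and 594 FPKM in miR-Ctrl libraries and at 537, 511, 552 and 549 in miR-204 libraries. The groups overlapped throughout. Its log2 difference was −0.018, with a paired 95% interval of −0.13 to 0.092, and its pairs were split 2 to 2. Hsp90b1, the ER form of HSP90, was at 338 ± 32.9 FPKM in miR-Ctrl libraries and 344 ± 25.1 in miR-204 libraries (here and below, mean ± SD, n = 4), a log2 difference of 0.029. Hyou1, a large HSP70 relative that exchanges nucleotide on BiP, was at 61.3 ± 3.64 and 60.1 ± 3.04 FPKM.

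The protein disulfide isomerases of the set, Pdia3, Pdia4 and Pdia6, were slightly higher on average with miR-204, and none passed the test in either fit. Their log2 differences of 0.094, 0.078 and 0.10 were 0.030, 0.014 and 0.039 after centring. P4hb, an enzyme of this family outside the set, fell and is described below. Pdia3, which works on glycoproteins with calnexin and calreticulin, was at 323 ± 39.1 FPKM in miR-Ctrl libraries and 345 ± 33.9 in miR-204 libraries. Pdia4 was at 125 ± 9.89 and 132 ± 12.4 FPKM, and Pdia6 at 229.7 ± 18.3 and 246 ± 12.0. Pdia6 passed the paired test only when replicate 2 was left out (log2 difference 0.15, adjusted p = 0.0309). The remaining chaperones had differences of the same small size. Dnajb11, a BiP co-chaperone, differed by 0.065, Dnajc3, which also restrains PERK, by 0.084, and Manf, a secreted ER stress protein, by 0.077. Creld2, a stress-induced ER protein known from cartilage disease, differed by −0.011. Sdf2l1, a partner of the ER co-chaperones, varied most, at 15.2, 24.8, 11.4 and 15.0 FPKM in miR-Ctrl libraries and 17.4, 23.0, 14.1 and 15.9 in miR-204 libraries. It was highest in both replicate 2 libraries and passed only when these were left out of the paired fit (0.18, adjusted p = 0.0448). The median log2 difference of the 12 genes was 0.078, close to that of all tested genes.

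Of the 4 genes of ER-associated degradation, which returns misfolded proteins to the cytosol for destruction, Sel1l fell in the paired fit. SEL1L (chr12:91806043-91849157) is the adaptor of the ubiquitin ligase HRD1. Sel1l was at 33.9, 38.1, 30.7 and 33.9 FPKM in miR-Ctrl libraries and at 29.6, 34.0, 26.7 and 29.2 in miR-204 libraries. The groups overlapped because the replicate 2 libraries were high in both, while the 4 pairs differed by a similar step of −0.19, −0.16, −0.19 and −0.21. The log2 difference was −0.19, with an SE of 0.091 (adjusted p = 0.629) and 0.032 in the paired fit (adjusted p = 0.0186). It was −0.25 after centring (adjusted p = 0.0104). Its 7mer-m8 window is printed above.

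Edem1, which takes mannose-trimmed glycoproteins to degradation, was at 18.8, 15.1, 18.6 and 18.7 FPKM in miR-Ctrl libraries and 17.1, 14.4, 17.3 and 17.9 in miR-204 libraries. Every pair was lower with miR-204, but the paired fit did not call it (log2 difference −0.091, adjusted p = 0.112), and it passed only after centring (−0.15, adjusted p = 0.0434). Syvn1, which encodes HRD1 itself, was at 23.9 ± 1.86 FPKM in miR-Ctrl libraries and 24.6 ± 0.979 in miR-204 libraries. Herpud1, a stress-induced scaffold of the same ligase, was at 109 ± 26.3 and 110.1 ± 25.7 FPKM. The SD of Herpud1 came from the replicate 2 libraries, at 71.7 and 74.0 FPKM against 112 to 134 in the other 6.

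**Figure D2:**
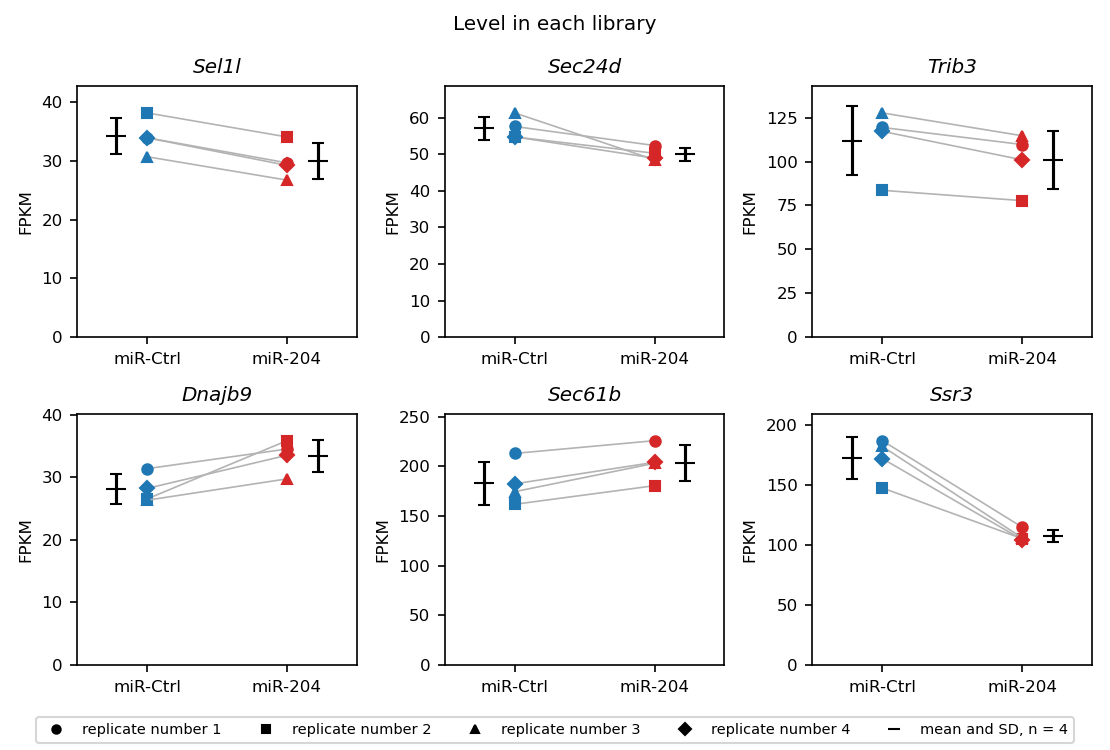
FPKM in each library for the 5 genes called in the paired fit and for Ssr3, with lines joining libraries of equal replicate number and bars giving the mean and SD (n = 4); axes start at 0. The 4 lines of each gene run the same way, and the groups are apart in Sec24d and Ssr3 and overlap in Sel1l, Trib3, Dnajb9 and Sec61b.

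The 3 sensors had means of 11.2 to 19.1 FPKM, among the lower levels of the set but above the median of all tested genes, 9.28 FPKM. None was called in either fit. Eif2ak3, the PERK gene, was at 20.03, 16.3, 21.1 and 18.0 FPKM in miR-Ctrl libraries and 20.8, 17.6, 19.99 and 19.3 in miR-204 libraries. Its groups overlapped, 3 pairs were higher with miR-204 and 1 was lower. Its log2 difference was 0.045 (adjusted p = 0.939, paired 0.493), with a paired 95% interval of −0.058 to 0.15. No seed match was found in its longest annotated 3′ UTR.

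Ern1, the IRE1 gene, was at 10.9, 13.4, 10.9 and 11.9 FPKM in miR-Ctrl libraries and 11.7, 14.7, 11.5 and 13.2 in miR-204 libraries. It was higher in each pair but missed the threshold (log2 difference 0.11, paired adjusted p = 0.0774). Atf6 was at 11.6, 12.0, 11.2 and 11.8 FPKM in miR-Ctrl libraries and 10.3, 11.1, 10.7 and 10.97 in miR-204 libraries. All miR-204 libraries lay below all miR-Ctrl libraries, by a small margin. Its log2 difference was −0.10, which passed in the paired fit after centring (−0.16, adjusted p = 0.0370) or quantile normalization (adjusted p = 0.0387).

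The 6 transcription factor genes gave no call in the paired or the unpaired fit. Atf4, the effector of the PERK branch, was at 378, 289, 411 and 349 FPKM in miR-Ctrl libraries and 368, 313, 439 and 356 in miR-204 libraries, a log2 difference of 0.051. Both replicate 2 libraries were low for Atf4, and the groups overlapped. Ddit3, the stress factor CHOP, was at 339.7, 205, 284 and 299 FPKM in miR-Ctrl libraries and 315, 208, 309.5 and 279.8 in miR-204 libraries. It showed the same dip in replicate 2, and its difference was −0.016. Xbp1 was at 60.5 ± 5.92 FPKM in miR-Ctrl libraries and 58.1 ± 5.45 in miR-204 libraries, a difference of −0.056. Atf3, a stress-induced repressor, was at 19.8 ± 1.37 and 19.9 ± 1.69 FPKM.

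The other 2 encode membrane-bound factors related to ATF6. Creb3l2, which drives Sec23a transcription in chondrocytes, was at 52.9, 33.2, 66.6 and 49.3 FPKM in miR-Ctrl libraries and 45.0, 32.1, 51.8 and 45.6 in miR-204 libraries. Each pair was lower with miR-204, and the replicate 2 libraries were the lowest in both groups. Its log2 difference of −0.19 missed the threshold in the paired fit (adjusted p = 0.0714) and passed without replicate 2 (−0.23, adjusted p = 0.0264). Sec23a itself was at 52.7 ± 4.02 FPKM in miR-Ctrl libraries and 50.2 ± 1.42 in miR-204 libraries, a log2 difference of −0.065. Creb3l1, the related factor of bone-forming cells, was at 37.3, 51.6, 27.5 and 39.6 FPKM in miR-Ctrl libraries and 40.1, 40.4, 29.9 and 38.6 in miR-204 libraries. Its difference of −0.041 came from pair 2 (−0.35), since 2 of the other 3 pairs were higher with miR-204.

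Trib3 was the one of the 4 ATF4 pathway effectors that fell in the paired fit. TRIB3 (chr2:152337425-152344060) is a pseudokinase induced by ATF4 and CHOP that dampens their activity. Trib3 was at 119, 83.6, 128 and 117 FPKM in miR-Ctrl libraries and at 109.7, 77.7, 115 and 101 in miR-204 libraries. The groups overlapped, with replicate 2 the lowest of each, and each pair was lower with miR-204. The log2 difference was −0.15, with an SE of 0.16 (adjusted p = 0.850) and 0.036 in the paired fit (adjusted p = 0.0414), and −0.21 after centring (adjusted p = 0.0235). No seed match was found in its 3′ UTR. The 3 others had means above those of miR-Ctrl on the log2 scale. Chac1, a glutathione-degrading enzyme, differed by 0.069, Asns, asparagine synthetase, by 0.067, and Ppp1r15a, the phosphatase subunit that restores translation, by 0.015. None of these 3 was called.

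Of the 3 genes of ER entry, Sec61b rose in the paired fit. It encodes the beta subunit of the Sec61 channel (chr4:47474661-47483233). Sec61b was at 213, 162, 174 and 182 FPKM in miR-Ctrl libraries and 226, 180.5, 203 and 204 in miR-204 libraries. The groups overlapped and every pair was higher with miR-204. Its log2 difference was 0.16, with an SE of 0.10 (adjusted p = 0.721) and 0.037 in the paired fit (adjusted p = 0.0409). It was 0.091 after centring (adjusted p = 0.153), so the call did not outlast that scaling. Sec61a1, the pore-forming subunit, was at 125 ± 8.37 FPKM in miR-Ctrl libraries and 119.6 ± 7.05 in miR-204 libraries, and it was lower in 4 of 4 pairs without passing the test.

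Ssr1, the alpha subunit of the translocon-associated protein (TRAP) complex, was at 35.6, 29.1, 31.6 and 32.5 FPKM in miR-Ctrl libraries and 34.4, 30.6, 33.0 and 31.8 in miR-204 libraries. The groups overlapped and the log2 difference was 0.013. Its complex partner Ssr3, the gamma subunit and not one of the 39, differed from it widely. Ssr3 (chr3:65379657-65392553) was at 187, 147, 182 and 172 FPKM in miR-Ctrl libraries and 115, 105, 106 and 104 in miR-204 libraries, with no overlap. It fell by 0.67 on the log2 scale with an SE of 0.084 (adjusted p = 0.0308, paired 0.0035). The unpaired call was lost when any 1 library other than miR-Ctrl replicate 2 was left out (highest adjusted p 0.151), although the log2 difference stayed between −0.74 and −0.63 in all 8 fits without 1 library. The paired call held in 4 of 4 paired fits that left out 1 pair. The 3′ UTR of Ssr3 held 2 matches of the 8mer class on the minus strand, at chr3:65381754-65381783 and chr3:65380776-65380805, shown with the match in capitals to set beside the single 8mer of Sec24d.
Ssr3, first 8mer: taaatgaattgAAAGGGAAactcagagtac
Ssr3, second 8mer: gaactttctgtAAAGGGAAatattactaat

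Among the 7 genes of COPII export, Sec24d had the only 8mer of the set and fell in the paired fit. SEC24D (chr3:123264801-123365641) is a cargo-binding subunit of the COPII coat, and its loss disturbs collagen export and skeletal development. Sec24d was at 57.6, 54.7, 61.3 and 54.7 FPKM in miR-Ctrl libraries and 52.4, 50.3, 48.5 and 48.9 in miR-204 libraries. All miR-204 libraries lay below all miR-Ctrl libraries. The log2 difference was −0.19, with an SE of 0.057 (adjusted p = 0.394) and 0.046 in the paired fit (adjusted p = 0.0446). Pair 3 differed most (−0.33), and the other 3 by −0.12 to −0.16. After centring it was −0.25 (adjusted p = 0.0333).

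The other COPII genes gave no call. Sec23b, a paralog of Sec23a in the inner coat, was at 23.6, 22.2, 26.0 and 23.4 FPKM in miR-Ctrl libraries and 25.6, 25.7, 26.4 and 26.2 in miR-204 libraries, a log2 difference of 0.12 (paired adjusted p = 0.0863). Only miR-Ctrl replicate 3 reached the miR-204 levels. Sar1b, the GTPase that starts coat assembly, was at 47.9, 45.4, 43.7 and 42.5 FPKM in miR-Ctrl libraries and 51.0, 50.8, 46.1 and 47.9 in miR-204 libraries, also a difference of 0.12 (paired adjusted p = 0.0638). Its paralog Sar1a differed by 0.0037. The rule by which reads shared by Sar1a and Sar1b, or by Sec23a and Sec23b, were assigned is unknown. Sec31a, of the outer coat, was at 101 ± 4.61 and 99.95 ± 5.34 FPKM, and Mia3, which encodes the collagen export receptor TANGO1, at 28.5 ± 1.15 and 29.5 ± 0.229.

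All 5 genes with an 8mer or 7mer-m8 were lower on average with miR-204, with log2 differences from −0.19 to −0.091 and a median of −0.19. Among all 1777 tested genes with such a match, 44.5% were below 0 and the median was 0.013. Of the 34 genes without one, 10 were below 0 (29.4%, against 21.8% of 9415 tested genes), and their median was 0.045 against 0.072. The paired fit called 2 of the 5 lower (Sel1l and Sec24d), against 11.4% of the 1777 genes of this class. After centring it called 4 of the 5, with Atf6 and Edem1, against 15.4% of the class. The 3 genes with a 7mer-A1 at best differed by −0.027 (Hyou1), 0.011 (Atf3) and 0.013 (Ssr1). The 5 genes are few and were set out after their values were known, so these counts are a description and no test was made of the class within the set.

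**Figure D3:**
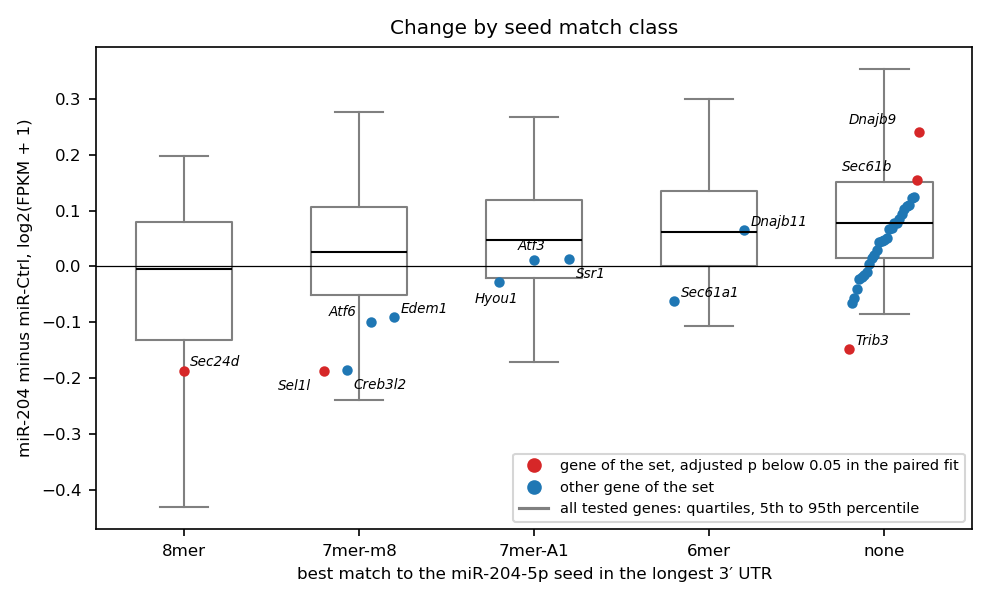
Log2 difference of miR-204 minus miR-Ctrl against the best match to the miR-204-5p seed in the longest 3′ UTR; points are the 39 genes, red if called in the paired fit, and boxes give quartiles and the 5th to 95th percentile of all tested genes. Points of the 8mer and 7mer-m8 classes all lie below 0, while Trib3 lies lowest among genes with no match.

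Replicate number held a larger share of the variation in these genes than miR-204. Its median share of a gene's sum of squares was 85.2% in the set (73.6% over all tested genes), against 8.37% for miR-204 (10.2% over all). The shares are not like for like, since there are 4 replicate numbers and 2 groups, and more levels take up more variation even without an effect. The genes did not move as one block. Both replicate 2 libraries lay below all other 6 libraries for 16 of the 39 genes (41.0%, against 8.98% of all tested genes) and above them for 8 (20.5%, against 30.5%). The low ones held all 4 ATF4 pathway effectors, Atf4, Ddit3, Atf3, Xbp1, Creb3l2, Eif2ak3, Herpud1 and Edem1, together with Hspa5, Sec61a1, Ssr1 and Sec31a. All 5 genes with the TGATGNAA element printed above were among them. How many of the other tested genes with this element were also low there was not counted. A link between the element and the low levels was not tested.

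Chac1 showed this most. It was at 71.4, 34.6, 80.4 and 68.6 FPKM in miR-Ctrl libraries and 74.3, 35.5, 87.5 and 71.7 in miR-204 libraries, and replicate number held 99.4% of its sum of squares. Both replicate 2 libraries were far below the rest, while the groups overlapped. Asns was at 126, 95.9, 133 and 128 FPKM in miR-Ctrl libraries and 126, 100.01, 152 and 129.6 in miR-204 libraries. Ppp1r15a was at 73.9, 53.8, 80.6 and 70.5 FPKM in miR-Ctrl libraries and 66.8, 56.7, 87.9 and 70.8 in miR-204 libraries. In both genes replicate 2 was the lowest and replicate 3 the highest of each group. The median deviation of the 4 effectors from the mean of all libraries was −0.35 in replicate 2 and 0.24 in replicate 3 on the log2 scale, opposite in sign to the medians of all tested genes, 0.072 and −0.059.

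The chaperones deviated in the direction of genes in general. Their median deviation was 0.089 in replicate 2 and −0.12 in replicate 3, against 0.072 and −0.059 over all tested genes. Of the 12, Hsp90b1, Hyou1, Sdf2l1, Manf and Creld2 were above the other 6 libraries in both replicate 2 libraries (41.7%, against 30.5% of all), as were Sel1l, Ern1 and Creb3l1. Hspa5, in contrast, was below them. The replicate 2 libraries also had the lowest chondrocyte marker sums, the highest osteoblast marker sums and the lowest depth, as given above. The osteoblast markers did not all go this way. Ibsp (12.1 and 14.3 FPKM) and Bglap were highest in the replicate 2 libraries. Sp7, in contrast, was at 1.47 FPKM in miR-Ctrl replicate 2, the lowest of all 8 libraries. It was at 2.16 FPKM in miR-204 replicate 2, and only miR-204 replicate 1 was lower in that group. The plasma cell list, almost all of it Sdc1, summed to 88.2 and 101 FPKM in the replicate 2 libraries and to 25.4 to 48.8 in the other 6. Mzb1, Cd79a, Igj and Prdm1 were near 0 in all libraries. The part of these in the pattern was not tested, and no label says what the replicate number stands for.

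**Figure D4:**
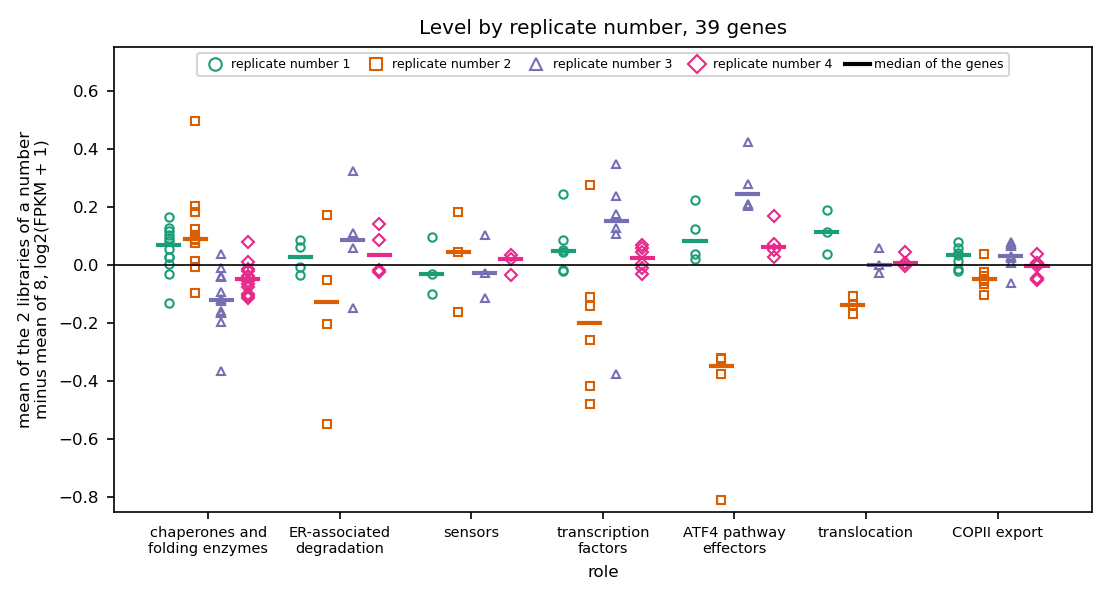
Deviation of each replicate number from the mean of all 8 libraries in log2(FPKM + 1), by role, where each symbol is 1 gene and bars are medians of the genes. ATF4 pathway effectors have a median of −0.35 in replicate 2 and 0.24 in replicate 3, and chaperones 0.089 and −0.12.

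Another 142 tested genes of the same pathways, in 6 lists, had log2 differences from −0.67 to 0.44, a wider range than the set. In the unpaired fit 0 of them were higher and 1, Ssr3, was lower. The paired fit called 12 higher (8.45%, against 12.4% of all tested genes) and 5 lower (3.52%, against 2.83%). After centring it called 2 higher (1.41%, against 4.99%) and 6 lower (4.23%, against 4.32%). These shares are near or below those of all genes, and the counts of each list below are a description. The median log2 difference of the 142 was 0.038. Among 19 further chaperones and folding enzymes, 4 rose and 1 fell in the paired fit. P4hb, a disulfide isomerase that is also the beta subunit of collagen prolyl 4-hydroxylase, was at 632 ± 43.0 FPKM in miR-Ctrl libraries and 513 ± 32.3 in miR-204 libraries, and fell by 0.30 on the log2 scale (paired adjusted p = 0.0115, unpaired 0.260). It has a 7mer-m8. Hspa13, an HSP70 relative of microsomes, rose by 0.25 (paired adjusted p = 0.0169) and Ero1lb, a weakly expressed ER oxidase, by 0.23 (paired adjusted p = 0.0369), and neither passed after centring. Ero1lb was higher with miR-204 in 4 of 4 pairs although it too has a 7mer-m8.

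Of 20 further genes of ER-associated degradation, 3 rose and 1 fell in the paired fit. Ubxn4, a membrane anchor for the p97 segregase, fell by 0.21 (paired adjusted p = 0.0304). Edem2 and Man1b1, which trim mannose from glycoproteins, rose by 0.17 and 0.16, and both calls were lost after centring. Among 18 further regulators of the response 2 rose, Wfs1 and Bbc3, and after centring neither passed. In a list of 30 ATF4 targets 1 rose and 2 fell. Fgf21, a stress-induced hormone, was at 12.7 ± 6.004 FPKM in miR-Ctrl libraries and 17.1 ± 6.96 in miR-204 libraries and rose by 0.44 in the paired fit (adjusted p = 0.0202). Nrbf2, an autophagy factor with an 8mer, fell by 0.24 (paired adjusted p = 0.0362), and Pycr1, an enzyme of proline synthesis, by 0.17 (0.0453). In this list 20 of 30 genes (66.7%, against 8.98% of all tested genes) were below the other 6 libraries in both replicate 2 libraries and 3 (10.0%, against 30.5%) were above. Of 25 translocon and oligosaccharyltransferase genes 0 rose and 1, Ssr3, fell. Of 30 COPII and Golgi genes 2 rose and 0 fell in the paired fit. Mcfd2, a cofactor of the cargo receptor LMAN1, was at 41.2 ± 2.95 FPKM in miR-Ctrl libraries and 52.3 ± 4.57 in miR-204 libraries and rose by 0.34 (paired adjusted p = 0.0075), and Gosr2, a Golgi SNARE, rose by 0.21 (0.0291) without passing after centring. An 8mer, as in Ssr3 and Nrbf2, was also present in Preb, Sec61a2 and Mbtps2 of these lists, and the paired fit called none of these. A 7mer-m8 was also present in Dad1, Srpr, Srp54a, Srp72, Tram2, Slc7a1 and Atf5, and the paired fit called none of them. Txndc5 held a 7mer-m8 too and was not called lower. Ubxn4 and Pycr1 fell in the paired fit without any seed match.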

How the data were processed

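RNA from 8 chondrocyte samples, 4 per group, was sequenced by the authors as stranded libraries of polyadenylated RNA, per the labels' protocols. In the deposited table each gene has 1 FPKM value in each library. TopHat (version not stated), Cufflinks 2.2.1 and mm10 are named in the submitters' processing notes. How Cufflinks was run, with which annotation and which filters, is not stated in these sources. FPKM values are not counts, so no count model was used, and a gene's FPKM falls when other genes take more of the fragments. Read totals are unknown. Depth relative to miR-Ctrl replicate 1 came from the steps between low values.

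limma 3.58.1 (R 4.3.3, trended prior) was run on log2(FPKM + 1) for the 11612 genes averaging 1 FPKM or more, two-sided, with Benjamini-Hochberg adjustment over all of them at 0.05. This scale understates changes of low genes. The fit was also run on simulated data in which libraries of equal replicate number shared their deviations. That pairing was built in, so the simulation cannot show whether the pairing of the real libraries holds. Groups and numbers of replicates were read from the labels, and the unpaired comparison was the first choice. The replicate number also paired the libraries. Across genes, deviations from the group means had correlations of 0.44, 0.82, 0.76 and 0.62 between the libraries numbered 1 to 4, and all 8 libraries were closest to the one sharing their number. This pairing is taken from the data, as the labels hold nothing but the number.

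The 39 genes and all lists were chosen with earlier results of these data known. All 39 were named. Of the pathway lists, genes passing the unpaired fit and up to 3 per list passing the paired fit with the largest change were named. Missing or date-like symbols were restored through Entrez identifiers. Alternatives were the replicate block, median centring, quantile normalization, a pseudocount of 0.1, no filter on low values, and leaving out libraries or pairs.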

Additional observations from a re-analysis of the deposited data

Results flagged for a closer look

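In 3 of 78 sets of 4 libraries examined (39 genes, 2 groups), 1 library stood apart by a gap, as a share of the range, above Dixon's 95% critical value, which chance gives in about 1 of 20 such sets. Edem1 was lowest in miR-Ctrl replicate 2, at 15.1 FPKM against 18.6 to 18.8 in the other miR-Ctrl libraries (gap 0.933 of the range). Sec61a1 was lowest in miR-204 replicate 2, at 109 FPKM against 122 to 124 in the others of its group (gap 0.898). Syvn1 was highest in miR-Ctrl replicate 3, at 26.6 FPKM against 22.8 to 23.2 (gap 0.879). In each case the library of the same number was also at that end of the other group. Edem1 was at 14.4 FPKM in miR-204 replicate 2, Sec61a1 at 113 in miR-Ctrl replicate 2 and Syvn1 at 25.8 in miR-204 replicate 3. The 78 sets share the same 8 libraries, so they are not independent.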

How the results depend on the processing

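The count of genes past the threshold, 0 higher and 0 lower in the unpaired fit, depended on the replicate block. With the block 2 were higher and 3 lower. The block gave 2 and 3 with a pseudocount of 0.1, 0 and 5 with median centring, 0 and 4 with quantile normalization, and 0 and 1 without the filter on low values. Leaving 1 pair out of the paired fit gave 4 and 4 without replicate 2, and 0 and 0 by limma without replicate 1, 3 or 4, where 6, 10 and 6 genes had an unadjusted p below 0.05. Without the block, each of 8 fits that left out 1 library gave 0 and 0 (lowest adjusted p 0.213), as did a fit without both replicate 2 libraries, which was chosen after seeing the data.

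Of 858 gene values under 22 alternatives, at least 28 moved by more than the standard error of the unpaired fit. The replicate block and the filter leave a gene's difference unchanged by design, and centring gives the same difference with or without the block. The low count is thus partly set in advance. A total of 21 genes changed sign under at least 1 alternative (99 values). None of the 5 genes called in the paired fit was among them, and the largest unpaired log2 difference among the 21 was 0.11 in size. Using the 3′ UTRs of any transcript left 8 of 39 genes with a 7mer or 8mer. For Ssr3, the unpaired adjusted p was 0.0504 with median centring and 0.0510 without the filter. With 4 libraries per group, the unpaired 95% intervals of Sdf2l1, Creb3l2 and Chac1 reached past a 1.5-fold change.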
